A study of Mus musculus with 2 samples.

Results

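The 8 genes described here encode 3 of the cytoplasmic intermediate filament proteins of muscle precursors (Vim, Des and Nes), a further filament protein (Synm), the nuclear lamins (Lmna, Lmnb1 and Lmnb2) and the linker plectin (Plec). They were chosen by name from the annotated genes of both libraries, out of 14198 annotated genes with reads. Of these 8 genes, 7 had reads in each library, on 181 transcript models in replicate 1 and 198 in replicate 2, out of 82272 and 78691 models in all. Total RNA of C2C12 cells was sequenced with long reads in 2 libraries, given by the labels as biological replicates of 1 group. C2C12 is a mouse myoblast line, traced by the labels to injured thigh muscle of C3H mice, and both cultures go back to the same line. The culture was not described as treated or differentiated, and the labels give neither its state nor the sequencing platform. With 1 group, each test below compared the libraries and not conditions.

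Intermediate filaments are rope-like polymers of coiled-coil proteins. In the cytoplasm of muscle precursors they are built from vimentin, nestin and desmin, and in mature muscle desmin filaments tie the Z-discs to each other, to the nucleus and to the membrane. In the nucleus, lamins line the inner membrane and anchor chromatin. Plectin bridges these filaments to adhesion sites, to Z-discs and to the nuclear envelope, and its alternative first exons are known to direct it to different places in the cell.

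The deposited values were raw read counts per transcript model, with depths of 791850 reads (replicate 1) and 735077 reads (replicate 2). Reads on annotated genes, 773408 and 722647, were the base of CPM (counts per 1000000 of them), so that 3 counts make 3.88 CPM in replicate 1 and 4.15 CPM in replicate 2. A read stands for 1 cDNA molecule, and a CPM is not divided by length. Levels of different genes are given in CPM and also per kilobase of the longest annotated transcript. The 2 scales can order genes differently, and the longest transcript need not be the most used. For Lmna it is Lmna-205, with 3948 bases, while Lmna-203, with the most reads, has 2021. Complete models held 84.0% of the annotated-gene total in replicate 1 and 88.3% in replicate 2, meaning annotated transcripts and unannotated splice structures. The other reads lay mostly on incomplete structures, which hold part of an annotated intron chain, or on the Genomic class, which is unspliced. All 5 myoblast markers had reads, with a summed level of 1280 ± 70.9 CPM (SD, n = 2). The largest part was Myog, at 597 ± 43.8 CPM, and the culture state was not inferred from these markers. Of the 5 markers, 1 differed between the libraries, the determination factor Myf5, with 215 reads in replicate 1 and 60 in replicate 2 (log2 ratio 1.73, adjusted p = 1.05e-16, exact binomial test). Summed levels were 0.692 CPM for endothelial, 4.71 CPM for blood and 0.646 CPM for epithelial markers. Fibro-adipogenic markers reached 480 ± 21.2 CPM, nearly all from Ly6a and Cd34. Neural and glial markers reached 73.6 ± 3.53 CPM, of which Tubb3 had 62.9 CPM and Nefl 10.1 CPM. Intervals, floors and p-values given here cover counting error between these libraries only.

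The sequences on which the counting of lamin ends and plectin first exons rests are given first. They are reference sequence of GENCODE M21 on mm10, written 5′ to 3′. For Lmna, on the minus strand of chromosome 3, the lower-case letters are the last 30 bases of exon 10 up to its donor (chr3:88483318-88483347). The capitals are the 30 bases that follow in each mRNA, which are the start of exon 11 in lamin A (chr3:88482583-88482612) and the bases just beyond the donor in lamin C (chr3:88483288-88483317). Of the lamin C capitals, 21 are coding, the stop codon included.
Lamin A: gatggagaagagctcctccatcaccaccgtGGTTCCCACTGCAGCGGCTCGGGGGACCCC
Lamin C: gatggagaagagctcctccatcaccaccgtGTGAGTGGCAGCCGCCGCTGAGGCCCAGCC

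For Plec, on the minus strand of chromosome 15, the lower-case letters are the last 30 bases of each annotated first exon that had reads in both libraries, and the capitals are the first 15 bases of the shared exon 2 (chr15:76194798-76194812). The first exons are named by an annotated transcript that holds them, in order from 5′ to 3′ of the gene. These 30-base stretches are at chr15:76229358-76229387, chr15:76205598-76205627, chr15:76197980-76198009 and chr15:76195424-76195453, all of them coding. Any 2 of them matched at 6 to 11 of 30 bases when set side by side without gaps, so the first exons can be told apart by sequence.
Plec-206: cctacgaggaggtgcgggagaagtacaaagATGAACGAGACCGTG
Plec-207: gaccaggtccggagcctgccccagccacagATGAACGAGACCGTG
Plec-204: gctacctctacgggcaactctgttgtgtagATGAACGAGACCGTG
Plec-201: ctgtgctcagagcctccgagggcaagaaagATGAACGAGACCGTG

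Together the members took 6194 reads in replicate 1 and 7017 in replicate 2, which is 8009 and 9710 CPM, a mean of 8859 ± 1203 CPM (SD, n = 2). Vim alone held 59.7% of these reads in replicate 1 and 58.5% in replicate 2. Per kilobase, Vim was highest, at 1788 ± 217 CPM per kb, and stood 3.89-fold above Des at 459 ± 118 CPM per kb. Des and Lmna, at 442 ± 61.9 CPM per kb, overlapped between libraries and could not be ordered. Nes followed at 42.9 ± 0.875 CPM per kb, 10.3-fold below Lmna with no overlap. Lmnb2, Plec and Lmnb1 had 10.8, 10.5 and 10.3 CPM per kb, overlapped each other and could not be ordered. A-type lamin reads thus outnumbered those of either B-type lamin gene in both libraries and on both scales.

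**Figure D1:**
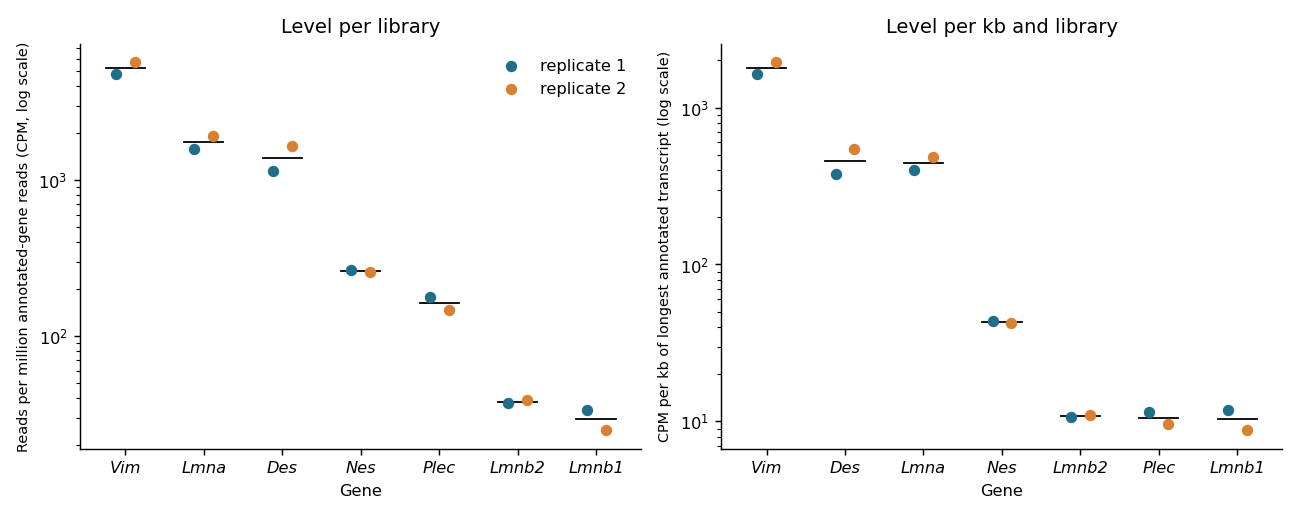
Level of the 7 genes with reads in each library, as CPM (left) and as CPM per kb of the longest annotated transcript (right), both on log axes; points are libraries and bars are means of 2. Vim stood highest on both scales, Lmna and Des overlapped on both, and Lmnb2, Plec and Lmnb1 overlapped per kb.

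Vim encodes vimentin, the main filament protein of mesenchymal cells, and lies on the plus strand of chromosome 2 (13573927 to 13582826). It had 3699 reads in replicate 1 and 4104 in replicate 2, or 4783 and 5679 CPM, and ranked 6 among all annotated genes by mean CPM (5231 ± 634, SD, n = 2). The 9-exon transcript Vim-201 took 3119 reads in replicate 1 and 3676 in replicate 2, which was 92.6% and 92.8% of the complete-model reads. The shorter annotated transcript Vim-203, with 5 exons, had 39 reads in replicate 1 and 23 in replicate 2, and Vim-206 had 0 and 2. Models that overlapped exon 1, which encodes the head and the start of the coiled-coil rod, held 90.2% of reads in replicate 1 and 96.1% in replicate 2, and those that overlapped exon 9 held 99.9% and 99.8%. The share was thus lower toward the 5′ end in both libraries, more so in replicate 1.

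Des encodes desmin, the muscle-specific partner of vimentin, and lies on the plus strand of chromosome 1 (75360329 to 75368579). It had 881 reads in replicate 1 and 1187 in replicate 2, or 1139 and 1643 CPM (1391 ± 356, SD, n = 2), and ranked 78. Its single annotated structure with reads, Des-201, took 724 and 1051 reads, 96.1% of complete-model reads in replicate 1 and 96.6% in replicate 2. Exon 1 was overlapped by models with 85.9% of Des reads in replicate 1 and 92.4% in replicate 2. The annotated gene Gm15179 overlaps Des on the other strand, and whether the counting used strand is not given in the sources used here.

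Vim and Des share more than their place in the filament. Exons 2 to 7 of Vim-201 and Des-201 have the same lengths, 710 bases in all, and 73.4% of these bases were identical without gaps. The largest of them, exon 6 with 221 bases, encodes the end of the coiled-coil rod and has the same length in Lmna. Lmna, Lmnb1 and Lmnb2 share 5 successive exon lengths, exons 2 to 6 of Lmna and Lmnb1 and exons 3 to 7 of Lmnb2, with 63.2% to 63.7% of 801 bases identical between pairs. Nes shared no exon length in register with Vim, and is annotated with 4 exons of which the last has 5031 bases.

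Unannotated splice structures of Vim and Des held junctions that lay close to annotated ones. Of 211 Vim reads on such structures in replicate 1, 183 differed from annotation only by junctions moved by up to 10 bases, as did 232 of 259 in replicate 2. For Des these were 19 of 29 and 25 of 37, and for Lmna 18 of 28 and 20 of 36. Among reads with a single moved junction, the most frequent Vim shift moved a donor 4 bases into the intron, at exon 8 in 50 reads of replicate 1 and 59 of replicate 2, at exon 7 in 40 and 54, and at exon 2 in 33 and 39 and at exon 3 in 22 and 26. In Des the same 4-base donor shift at exon 8 had 7 reads in each library and that at exon 7 had 4 in replicate 1 and 5 in replicate 2, and none was listed at Des exons 2 and 3. The bases at the Vim exon 2 donor (chr2:13575572-13575613, plus strand) are shown because an annotated transcript with a retained intron gives the sequence there. The donors of exons 8, 7 and 3 were not read. The lower-case letters are the end of exon 2 and the capitals are the first 12 bases of intron 2, which read GT at positions 1 to 2 and again at positions 5 to 6 of the intron.
Vim exon 2 donor: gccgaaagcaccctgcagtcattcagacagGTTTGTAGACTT

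A larger change in Vim was a structure of 10 exons in which 333 bases inside exon 1 were spliced out, with 5 reads in each library. Of the 69 unannotated intron chains of Vim, 21 were seen in both libraries, and these held 188 of 211 such reads in replicate 1 and 226 of 259 in replicate 2. For Des, 8 of 26 chains were seen in both.

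Unannotated and incomplete Des models ended well before the annotated 3′ end. Those that held the annotated last intron, with 87 reads in replicate 1 and 91 in replicate 2, all carried an end 868 bases short of it in replicate 1 and 862 bases short in replicate 2. Models of a gene within a library share end coordinates in the deposited annotation, so such a coordinate can stand for several nearby read ends. The 30 bases up to the farther of these ends (chr1:75367688-75367717, plus strand, in the 3′ untranslated region) are shown with AATAAA, the usual polyadenylation signal, in capitals.
Des end: agaaacaatAATAAAgagacaagcacaaac
The motif began 21 bases from the end, and its reverse complement was not in the window. Over the annotation, 35.5% of 58793 protein-coding transcripts hold AATAAA in their last 30 bases and 2.91% its reverse complement. The ends of the 724 and 1051 reads assigned to Des-201 are not known from these files, since annotated models carry the annotated coordinates. Vim ends, by contrast, lay 1 base from the annotated end in 460 of 461 reads of this kind in replicate 1 and 345 of 364 in replicate 2.

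Nes encodes nestin, a long filament protein of neural and muscle progenitors that polymerises with vimentin or desmin, and lies on the plus strand of chromosome 3 (87971078 to 87980451). It had 206 reads in replicate 1 and 187 in replicate 2, or 266 and 259 CPM (263 ± 5.36, SD, n = 2). The total was thus nearly the same in the libraries, but its makeup was not. Unspliced models within the last exon, exon 4, held 133 reads in replicate 1 and 68 in replicate 2, that is 64.6% (57.8 to 70.8, Wilson 95% interval) and 36.4% (29.8 to 43.5). The difference, replicate 1 minus replicate 2, was 28.2 percentage points (18.4 to 37.2, Newcombe 95% interval). The spliced transcript Nes-201 had 64 reads in replicate 1 and 113 in replicate 2.

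Across all annotated genes the Genomic class was also larger in replicate 1, at 5.38% of reads against 3.23% in replicate 2, and among genes whose longest transcript has 4 to 8 kb, as Nes does, it was 13.7% and 8.95%. The part of read length or RNA quality in the Nes difference was not tested. The unspliced Nes model began 3596 bases before the 3′ end of the gene in replicate 1 and 3593 in replicate 2, and did not overlap exons 1 to 3.

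A few Nes models stopped inside exon 4. They held 9 reads in replicate 1, of which 5 are among the unspliced reads above, ending at position 87976159, and 4 in replicate 2, ending at 87976157. The reference around the end in replicate 2 (chr3:87976128-87976187, plus strand) is shown with the 30 bases beyond it in capitals, of which 17 are A. In exon 4 the median 30-base window holds 9 A, and 0.480% of the 5002 windows hold 17 or more.
Nes internal end: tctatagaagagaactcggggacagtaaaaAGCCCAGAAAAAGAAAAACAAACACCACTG

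Synm encodes synemin, a large filament protein that binds desmin and vimentin, and lies on chromosome 7 (67730160 to 67759742, minus strand). It had 0 reads in both libraries, which allows a level of up to 3.88 CPM in replicate 1 and 4.15 CPM in replicate 2. Its longest annotated transcript has 7818 bases.

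**Figure D2:**
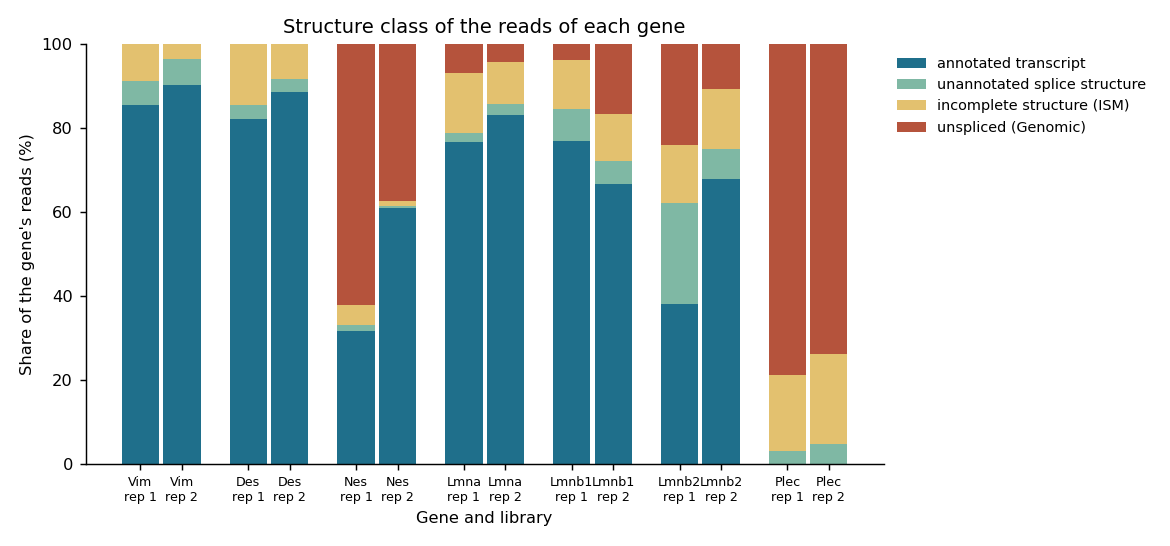
Share of each gene's reads by structure class, in percent, with replicate 1 left of replicate 2 for each gene. Vim and Des reads lay mostly on annotated transcripts, Plec reads mostly on the unspliced class, and the unspliced share of Nes was larger in replicate 1.

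Lmna encodes both A-type lamins and lies on the minus strand of chromosome 3 (88480147 to 88509956). It had 1216 reads in replicate 1 and 1386 in replicate 2, or 1572 and 1918 CPM (1745 ± 244, SD, n = 2), and ranked 60. A model was counted as lamin A where it held the junction from exon 10 to exon 11, and as lamin C where its last exon ran past the exon 10 donor. The annotated lamin C transcript Lmna-203 runs 113 bases past that donor and ends there. The annotated lamin A transcript Lmna-201 goes on through exons 11 and 12.

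Lamin C ends outnumbered lamin A ends in both libraries. They made up 830 of 1119 assigned reads in replicate 1, 74.2% (71.5 to 76.7, Wilson 95% interval), and 947 of 1300 in replicate 2, 72.8% (70.4 to 75.2). The ratio of lamin C to lamin A ends was 2.87 in replicate 1 and 2.68 in replicate 2. The difference between the shares was 1.33 percentage points (-2.21 to 4.84, Newcombe 95% interval), so the interval includes 0. The main annotated transcripts carried most of these reads, with 644 and 843 on Lmna-203 and 245 and 292 on Lmna-201. Lmna-205, which has 3 exons runs past the donor and on into the last lamin A exon, was counted as lamin C by this rule and had 33 reads in replicate 1 and 5 in replicate 2.

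The mean share over both libraries changed most with how 3′ fragments were counted. In replicate 2 alone, the share changed most when only incomplete models were counted. Lamin C mRNA is shorter than lamin A mRNA (2021 and 3156 bases annotated), and 84 unspliced reads in replicate 1 and 61 in replicate 2 lay in the region of the last lamin A exons without an exon 10 junction. When each model that reached the last lamin A exon was counted as lamin A, Lmna-205 included, a choice made after seeing the data, the lamin C share was 65.6% in replicate 1 and 68.2% in replicate 2. Among models that held the exon 1 donor, it was 72.4% and 73.8%. This count leaves out 5′-truncated reads, and whether it leaves out more of the longer lamin A mRNA was not tested. Incomplete models alone gave 79.7% in replicate 1 and 66.2% in replicate 2, and there the difference of 13.5 percentage points had an interval that did not include 0 (3.48 to 23.4). In each of these counts lamin C ends were the larger part in both libraries.

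**Figure D3:**
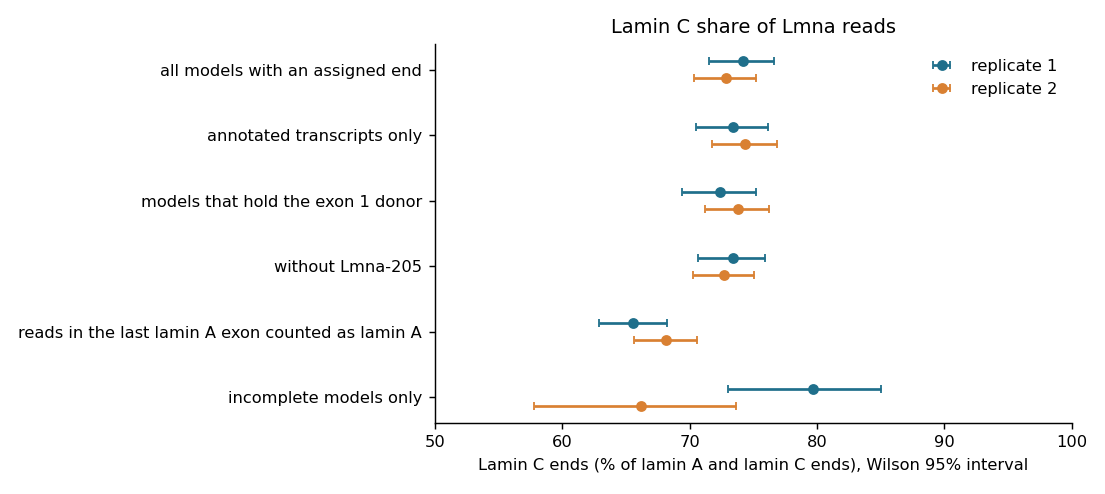
Lamin C ends as a percentage of lamin A and lamin C ends of Lmna reads, under 6 ways of counting; points are libraries and bars are Wilson 95% intervals, and the axis starts at 50%. The libraries lay between 72.4% and 74.4% when annotated or 5′-complete models were counted, and apart when only incomplete models were.

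At the 5′ end, 907 Lmna reads in replicate 1 and 1178 in replicate 2 used the exon 1 donor of Lmna-201 and Lmna-203. Donors of unannotated first exons in intron 1 were rare. The most frequent, 554 bases upstream of exon 2, had 2 reads in replicate 1 and 3 in replicate 2, and that 13068 bases upstream had 2 and 1. Exon 1, whose coding part begins the head domain, was overlapped by models with 74.8% of Lmna reads in replicate 1 and 85.1% in replicate 2, and exon 10 by 92.3% and 94.4%. The lines step down at exon 11, past the lamin C end, and models with 27.5% and 31.7% of reads overlapped that exon. These shares are not lamin A shares. They count 334 and 440 reads, of which 289 and 353 were assigned to lamin A. The 61 unspliced reads of replicate 2 overlapped exon 11, while the 84 of replicate 1 did not. Over complete models, Lmna-203 took 67.2% in replicate 1 and 71.0% in replicate 2, with an adjusted p of 0.918 by Fisher's exact test.

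**Figure D4:**
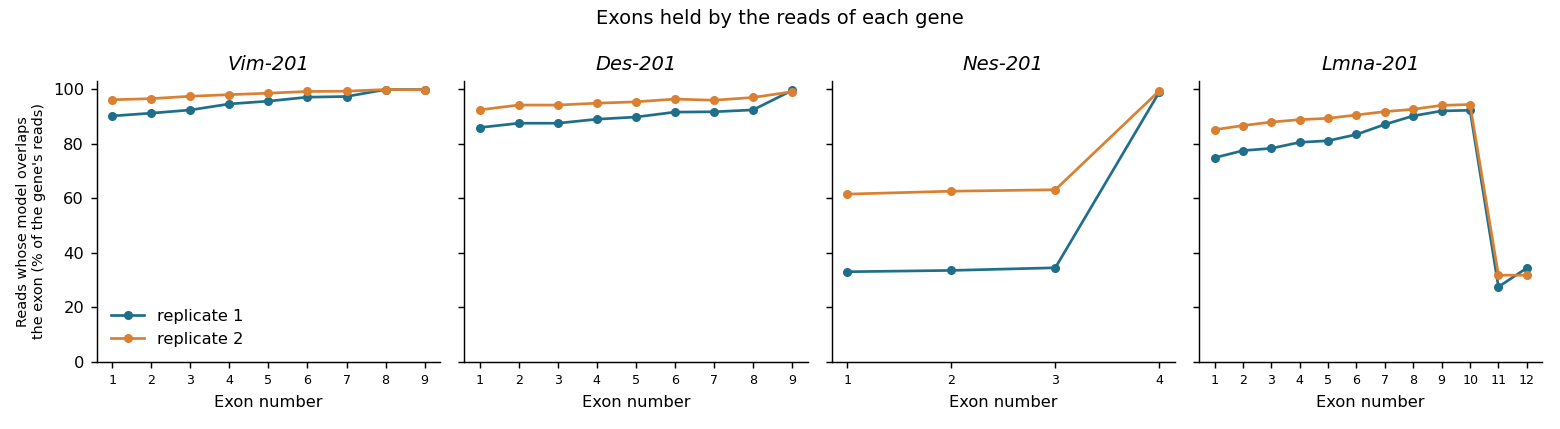
Share of each gene's reads whose model overlaps each exon of the named annotated transcript, in percent, by exon number from 5′ to 3′; lines are libraries. Replicate 1 lay below replicate 2 toward the 5′ exons of Vim, Des, Nes and Lmna, and the Lmna lines drop after exon 10, where lamin C ends.

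The B-type lamins, which stay attached to the membrane by their farnesyl group, were far lower. Lmnb1, on chromosome 18, had 26 reads in replicate 1 and 18 in replicate 2, or 33.6 and 24.9 CPM (29.3 ± 6.16, SD, n = 2). Its main annotated transcript, with 11 exons, took 20 of these reads in replicate 1 and 12 in replicate 2. Lmnb2, on the minus strand of chromosome 10 (80901203 to 80918245), had 29 and 28 reads, or 37.5 and 38.7 CPM (38.1 ± 0.884, SD, n = 2). Its main annotated transcript, with 12 exons, took 11 of them in replicate 1 and 19 in replicate 2. The libraries did not overlap between Lmnb2 and Lmnb1 in CPM, but they did per kilobase. With 29 and 26 reads in replicate 1, the CPM values do not order the B-type genes either. The unannotated or incomplete Lmnb2 models that held the annotated last intron, with 11 reads in replicate 1 and 6 in replicate 2, all ended 161 bases before the annotated end.

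Plec lies on the minus strand of chromosome 15 (76170974 to 76232574), and its longest annotated transcript has 15455 bases. It had 137 reads in replicate 1 and 107 in replicate 2, or 177 and 148 CPM (163 ± 20.6, SD, n = 2). None of them was assigned to an annotated transcript. An unspliced model at the 3′ end of the last exon held 108 reads in replicate 1 and 79 in replicate 2, 78.8% (71.3 to 84.8) and 73.8% (64.8 to 81.2) of the gene's reads. The remaining 29 and 28 reads were spliced and came from the 5′ part of the gene.

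The models of these spliced reads stopped early. They ended in exon 16 of Plec-207 in 16 reads of replicate 1 and 17 of replicate 2, in exon 17 in 13 and 10, and in exon 19 in 0 and 1. In exon 16, 13 and 16 of these reads ended on the last base of the exon, as did all of those in exon 17. Such model coordinates can stand for several nearby read ends. No model in either library overlapped any of exons 20 to 31. Exon 31, with 3381 bases, encodes the coiled-coil rod of plectin, and an isoform without that exon is known. Since no read spanned the region, these data hold no measure of rod inclusion. Among all genes whose longest transcript exceeds 8 kb, models classed as complete held 48.4% of reads in replicate 1 and 56.4% in replicate 2. For Plec that class held 2.92% and 4.67%, all on unannotated splice structures. These too ended by exon 19 of 32, so the class name does not mean a full-length Plec mRNA.

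An annotated first exon could be assigned to 19 Plec reads in replicate 1 and 25 in replicate 2, out of 13 annotated first-exon donors. Of the 13, 6 were used in at least 1 library and 4 in both. The exon shared by Plec-205, Plec-207 and Plec-222, which lies 10786 bases upstream of exon 2, had 5 reads in replicate 1 and 11 in replicate 2, 26.3% (11.8 to 48.8, Wilson 95% interval) and 44.0% (26.7 to 62.9). The exon of Plec-206, 34546 bases upstream, had 6 and 4 reads. The exon of Plec-201, 612 bases upstream, had 1 and 8, and that of Plec-204, 3168 bases upstream, had 3 and 2.

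In replicate 1 the intervals of these 4 first exons all overlapped. In replicate 2 those of the leading exon and of Plec-204, at 8% (2.22 to 24.97), did not overlap, and all other pairs did. Which exon led was not resolved at this depth. In replicate 1 alone, 2 reads each used the exon of Plec-202, Plec-212 and Plec-218 and the exon of Plec-210 and Plec-213, whose region overlaps the gene Parp10. An exon of 15 bases annotated between exons 2 and 3 in some transcripts was in 0 Plec reads that had an annotated first exon.

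**Figure D5:**
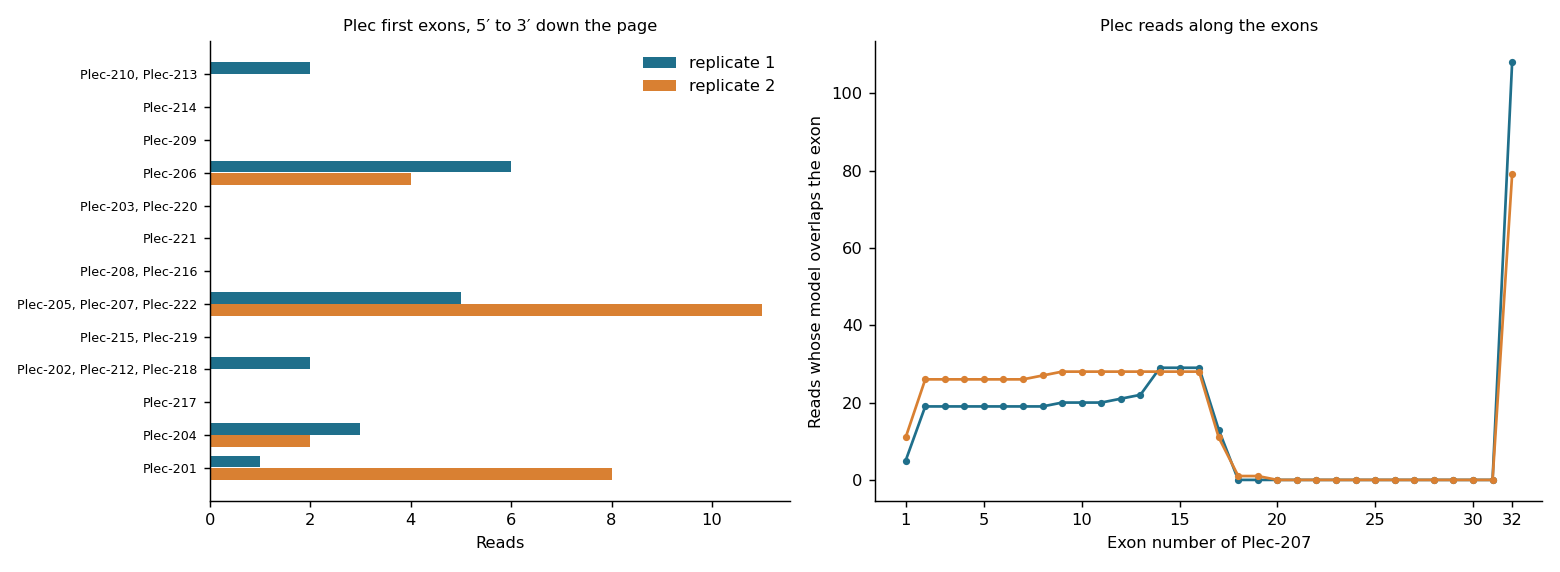
Left, Plec reads by annotated first exon, named by the transcripts that hold it and ordered from 5′ to 3′ down the page, with replicate 1 above replicate 2. Right, Plec reads whose model overlaps each exon of Plec-207; reads lay on exons 1 to 19 and on exon 32, and 0 on exons 20 to 31.

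Between the libraries, 3 of the 7 tested members differed by an exact binomial test with Benjamini-Hochberg adjustment over all 8940 genes tested, and all 3 were lower in replicate 1. Myf5 was higher in replicate 1, as given above, and its part in these differences was not tested. Of all genes tested, 3.98% were called, 1.39% as lower in replicate 1 and 2.6% as higher. Calls follow depth, since 55.4% of the 83 genes with at least 2000 reads were called. The members' median log2 ratio was -0.05, beside -0.06 over all genes tested. The log2 ratio of replicate 1 over replicate 2 was -0.53 for Des (counting SE 0.06, adjusted p = 5.84e-14), -0.25 for Vim (0.03, adjusted p = 1.05e-11) and -0.29 for Lmna (0.06, adjusted p = 4.22e-05). No member reached the 2-fold difference that 0.794% of tested genes passed.

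Nes, Plec, Lmnb2 and Lmnb1 did not pass the test, with log2 ratios of 0.04, 0.26, -0.05 and 0.42. Nes was called once unspliced reads were left out. On complete models it had 68 reads in replicate 1 and 115 in replicate 2, a log2 ratio of -0.78 (adjusted p = 0.0131, exact binomial test). The use of the leading complete model could be tested in Vim, Des, Nes and Lmna, and 0 of these 4 were called by Fisher's exact test, against 1.87% of 4011 genes. Their unadjusted p-values were 0.686, 0.612, 0.197 and 0.0599.

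Completeness differed between the libraries in most members. Complete models held 91.1% of Vim reads in replicate 1 and 96.5% in replicate 2, 85.5% and 91.7% of Des reads, 78.9% and 85.7% of Lmna reads, and 33.0% and 61.5% of Nes reads. Over all genes of 2 to 4 kb, complete models held 82.4% in replicate 1 and 87.9% in replicate 2. Over those of 4 to 8 kb, as Nes is, they held 68.5% and 74.9%. Lmnb1 alone ran the other way, at 84.6% and 72.2% on 26 and 18 reads, with overlapping intervals.

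The lists below cover other genes of the filament and lamina systems, and within each list the 4 genes with the highest CPM are named. These CPM are not divided by length and do not order the genes per kilobase. Over all genes tested, 3.98% were called and the median log2 ratio was -0.06. The lists hold too few tested genes for their counts of calls to be told apart from that share. Among 20 further intermediate filament genes, reads were found in both libraries for 8 and in neither for 10, and of the 4 tested 0 were called. Those named were Sync, which encodes the desmin-binding protein syncoilin, at 67.2 ± 10.95 CPM, Krt14, a keratin of basal epithelia, at 36.6 ± 4.86 CPM, Krt19 at 10.8 ± 4.30 CPM and Nefl, a neurofilament subunit, at 10.1 ± 1.43 CPM (SD, n = 2). Krt8, the usual keratin of simple epithelia, and Gfap, the astrocyte filament, had 0 reads in both libraries.

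Among 13 linkers and chaperones, 9 had reads in both libraries and 8 were tested. The small heat shock proteins Hspb1 and Cryab (alpha-B-crystallin, known to bind desmin) stood at 867 ± 26.5 and 460 ± 12.6 CPM, with log2 ratios of -0.06 each. Hspb8, which works with Bag3 in clearing damaged proteins, had 129 reads in replicate 1 and 195 in replicate 2. It was the 1 call of the list (log2 ratio -0.69, adjusted p = 0.00135, exact binomial test). Jup, the plaque protein plakoglobin, stood at 72.3 ± 5.36 CPM. Dsp, Ppl and Eppk1, linkers of epithelial junctions, had 0 reads. The list's median log2 ratio was -0.11, beside -0.06 over all genes tested, of which 3.98% were called.

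Among 16 lamina and nuclear envelope partners, 15 had reads in both libraries and 0 of 11 tested were called, with a median log2 ratio of -0.21. Over all genes tested, 3.98% were called and the median was -0.06. Those named were Banf1, a chromatin protein that binds lamin A and emerin, at 416 ± 60.4 CPM, Tmem43 at 144 ± 27.7 CPM, Tor1a, an ATPase of the nuclear envelope, at 107 ± 10.8 CPM and Tmpo, which encodes the LAP2 proteins, at 93.1 ± 20.1 CPM (SD, n = 2).

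All 5 enzymes of lamin maturation had reads and were tested, and 1 was called. Fnta, a subunit of the farnesyltransferase, stood at 210 ± 17.7 CPM, the protease Rce1 at 90.1 ± 21.3 CPM and Zmpste24, which cuts prelamin A, at 47.9 ± 9.04 CPM. Icmt, which methylates the farnesylated end, had 45 reads in replicate 1 and 15 in replicate 2 and was called as higher in replicate 1 (log2 ratio 1.46, adjusted p = 0.0107, exact binomial test). Of all genes tested, 2.6% were called as higher in replicate 1. The list's median log2 ratio was -0.17, beside -0.06 over all genes tested.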

How the data were processed

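Per the file headers, the deposited tables hold raw counts of reads per transcript model for each library, and the paired annotations give each model's exons on mm10. Per the file headers, the authors annotated against GENCODE M21 and unannotated models carry TALON as their source. The aligner and its version, and any filter, are not stated in the labels or headers. Annotated models carry annotated coordinates and not those of the reads. Gene counts were sums over all models of an annotated gene, and CPM used annotated-gene reads. Genes with at least 10 reads over both libraries entered an exact binomial test, two-sided (scipy 1.17.1), given the library totals, with an offset of 0.5 reads in ratios and Benjamini-Hochberg adjustment at 0.05. Isoform use was tested by Fisher's exact test where each library had 20 or more reads on complete models. Both tests were run on simulated counts that held only counting error between libraries, with gene changes larger than those of the called members. That check does not cover other variation between libraries. Shares have Wilson 95% intervals. Alternatives used edgeR 4.0.16 (TMM), DESeq2 1.42.0 size factors, other filters and read classes.

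The 8 members and the partner and marker lists were chosen with earlier results of these data known. Named genes were all members and, of each list, the 4 highest by mean CPM and all called genes. Genes with 0 reads and the marker genes were named outside that rule after their values were seen. Reference sequences came from the GENCODE M21 transcripts. The labels call the libraries biological replicates of 1 line, and p-values measure only counting error between them.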

Additional observations from a re-analysis of the deposited data

How the results depend on the processing

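The number of genes called between the libraries was 301 to 406 under 6 other settings, against 356. Calls higher in replicate 1 made up 65.2% of all calls, but 78.7% with TMM and 88.2% with DESeq2 size factors, and the median log2 ratio over all genes was -0.06, -0.01 and 0.04. Vim, Des and Lmna were lower in replicate 1 and called under all 7 settings, with log2 ratios of -0.26 to -0.15, -0.56 to -0.43 and -0.33 to -0.19. Nes turned from 0.04, not called, to -0.78 (adjusted p = 0.0131, exact binomial test) on complete models and -0.65 (adjusted p = 0.0446) without the Genomic class, and its adjusted p ranged from 0.0131 to 1. The cause was not tested. With a minimum of 50 reads on complete models per library, 43 genes differed in isoform use, against 75, from 2221 genes tested in place of 4011. The members' summed level was 2764 when expressed as CPM per kb, another unit. The mean lamin C share was 66.9% when models that reach the last lamin A exon were counted as lamin A, against 73.5%, as unassigned reads then entered as lamin A and the Lmna-205 reads moved there from lamin C. The mean share stayed within 72.9% to 73.9% under the 8 other ways of counting run on both libraries. Not all of these could move it. Leaving out the Genomic class removed only unassigned reads, and asking for 50 bases beyond the donor changed no assignment. For incomplete models the mean joined 79.7% in replicate 1 and 66.2% in replicate 2.

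Leaving out a replicate gave a summed level of 8009 to 9710 CPM, a complete-model share of 83.9% to 91.1%, a lamin C share of 72.8% to 74.2% and a share of the first exon of Plec-205, Plec-207 and Plec-222 of 26.3% to 44.0%. No gene or isoform test was possible with 1 library. No paired analysis was possible because there is 1 group, and no groups share replicate numbers. Counting annotated Plec models alone gave no value, as none had reads. Depth limits Plec first exons (19 and 25 reads), Lmnb1 and Lmnb2 most.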
